A study of Mus musculus with 20 samples.

Results

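Colon organoids that express BrafV600E were compared with empty-vector organoids after 48 h in base medium, which lacks the factors of the stem-cell niche. The comparison rests on 6 of the 20 arrays of the series, 3 of BRAF organoids and 3 of empty-vector (EV) organoids, taken by the titles that name the type, the line and base medium. Both types were grown from crypts of the first 2.5 cm of the proximal colon of male mice of about 40 days, heterozygous for a BrafV600E allele that stays silent until Cre acts on it. BRAF organoids had received Cre by lentivirus and were profiled 5 months after the oncogene was switched on. EV organoids had received the backbone of the same virus, so they carried the allele in its silent form. All were kept in Matrigel, and the routine medium was made of conditioned media for Wnt3a (50%), R-spondin (20%) and Noggin (10%), 20% Advanced DMEM/F12 with B27, and EGF. Each type had lines 1 to 3, and the labels give an EV and a BRAF culture of the same line the same number. They do not say whether the lines came from separate mice, so the p-values measure only the spread between these cultures, which may be technical. Such cultures are meant to hold epithelium without stroma, immune cells or gut contents, and the virus was given to whole cultures.

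Braf is a kinase of the RAS-RAF-MEK-ERK cascade, which carries growth factor signals from receptors such as Egfr to the nucleus, and the V600E form is active without an upstream signal. ERK turns on its own feedback inhibitors, among them the Dusp phosphatases and Sprouty proteins, together with the Pea3 factors Etv4 and Etv5. In the colon, Wnt, R-spondin, EGF and the BMP blocker Noggin keep the cells at the crypt base dividing, and cells that leave the base stop dividing and become absorptive colonocytes, mucus-making goblet cells or hormone-making enteroendocrine cells. BrafV600E is known from serrated tumours of the human right colon.

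Between 60.6% and 65.2% of spots stood well above background on these 6 arrays, and arrays of 1 group correlated at r = 0.960 to 0.979 across genes, which are not independent replicates. EV and BRAF arrays lay on separate slides, so the slide cannot be told apart from the organoid type. A fit that took slide as a random block called 6207 genes, against 6652 without it. That fit cannot remove a difference shared by all slides of a type. All 8 epithelial markers (Epcam, Cdh1, Krt8, Krt18, Krt19, Vil1, Cdx2 and Cldn7) were well above background on all 6 arrays, with a summed linear level of 1440 to 1597 times the 75th percentile of an array in EV organoids and 1006 to 1977 in BRAF organoids. The 10 fibroblast and muscle markers summed to 0.375 to 0.432 and 0.311 to 0.516, with Col1a1, Dcn, Des, Lum, Myh11 and Pdgfra not well above background on any array. Endothelial markers summed to 2.99 to 3.39 and 4.28 to 5.95 (Cdh5, Emcn and Tek not above background), neuron and glia markers to 0.294 to 0.366 and 0.438 to 0.649, and blood and immune markers to 40.6 to 62.5 and 23.2 to 33.4 (Tyrobp not above background). The part of these cells in the results was not tested. Fewer cells of a type and less RNA per cell cannot be told apart in such bulk samples.

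A level is given in log2 units above or below the 75th percentile of its array's processed signal, so a level of 0 marks a gene brighter than most, and 1 unit is a 2-fold step. A level belongs to 1 probe and is not set against that of another gene. Differences are BRAF minus EV, with 3 arrays a group, and carry the standard error (SE) of a limma fit. The call needed an adjusted p (Benjamini-Hochberg) under 0.05 across the 21423 genes tested, and "rose" and "fell" are used of called genes. Braf itself lay at -3.16, -3.33 and -2.62 in EV lines 1 to 3 and at -2.37, -2.69 and -1.92 in BRAF lines 1 to 3. Its transcript rose by 0.71 ± 0.24 (SE, adjusted p = 0.0396), with BRAF line 2 inside the range of the EV lines. The probe does not separate the V600E from the wild-type transcript, so this level does not check the allele. Braf lost its call without EV line 1, EV line 2, BRAF line 1 or BRAF line 3 (adjusted p = 0.0783 to 0.145) and on the authors' deposited log2 values, with no filter on dim probes, in the fit of the 6 base medium arrays alone or with line as a block in those 6 arrays (adjusted p = 0.0577 to 0.151).

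Of the 21423 genes, 6652 (31.1%) were called, 3841 higher (17.9%) and 2811 lower (13.1%) in BRAF organoids. The arrays of the 2 groups did not overlap in 41.3% of the genes measured on all 6 (22.4% higher and 18.9% lower). The median difference over all genes was 0.031, 3731 of the called genes differed by more than 2-fold and 425 by more than 8-fold. On the first principal component of the 6 arrays, with 59.31% of the variance, the EV arrays lay at -79.95, -40.28 and -118.1 and the BRAF arrays at 100.8, 84.41 and 53.13. The counts depended on EV line 3, without which 4368 genes were called. A fit of these 6 arrays alone, where the spread rests on 4 residual degrees of freedom in place of 12, called 2982 genes, and 2346 with line as a block. Of 967 genes in 49 lists, 842 could be tested, and 192 of them were higher and 137 lower. The sections that follow take the lists by their role, and "kept under every alternative" is said of a gene that stayed called in all 17 other fits, among them 6 that each left out 1 array. Where a count above 0 or a printed median moved by over 1.5 times in another fit, that value is given after the list. Counts of 0 are those of the main fit and were not followed this way for every list. The words "both fits of the 6 arrays alone" stand for those with and without the block.

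**Figure D1:**
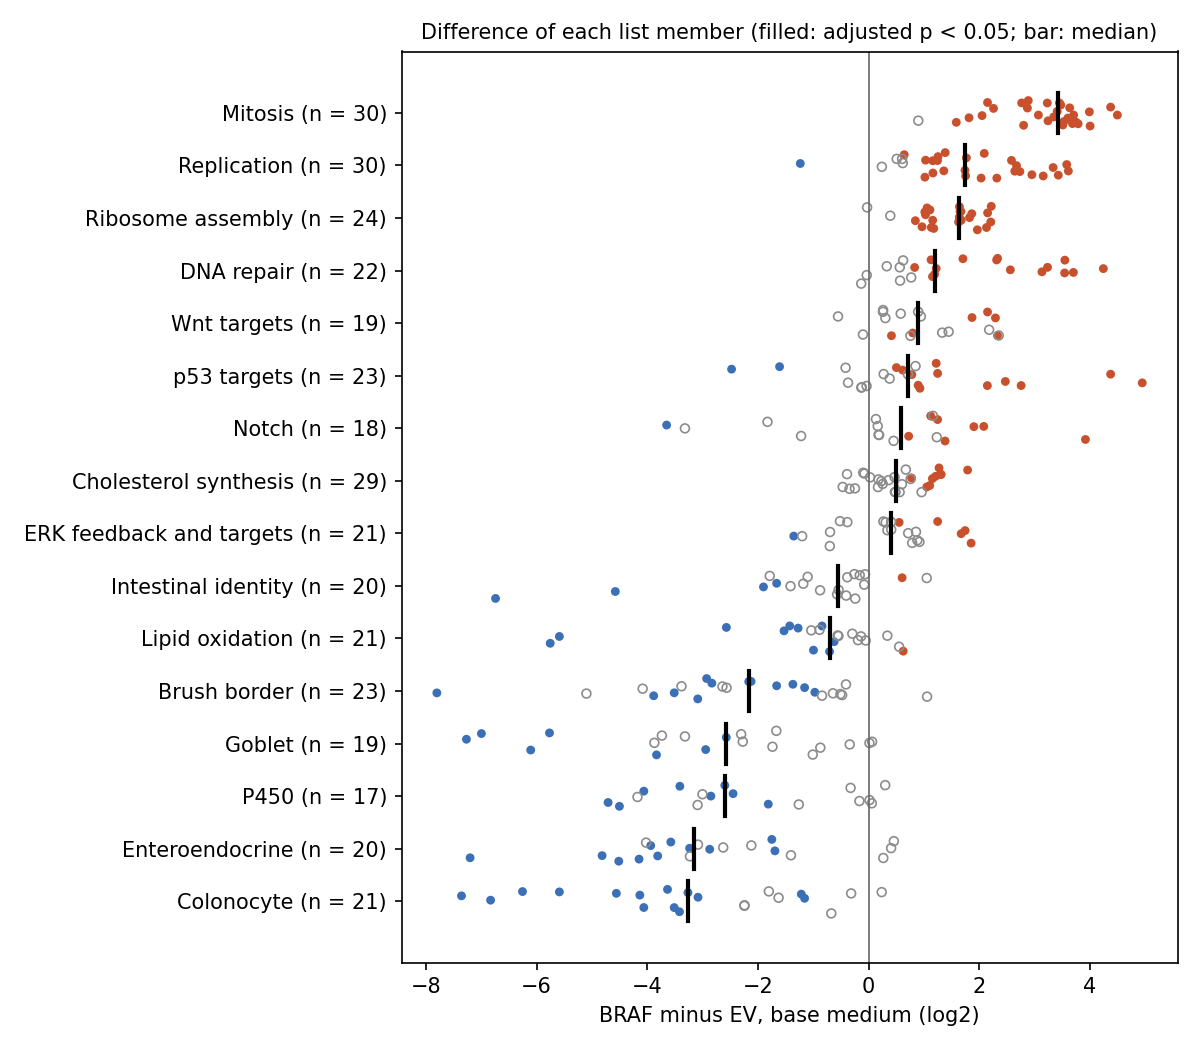
BRAF minus EV difference in base medium of each tested member of 16 gene lists, on the log2 scale. Filled points passed the limma test, open points did not, and the bar is the list's median. Mitosis (median 3.43), replication (1.75) and ribosome genes (1.63) lie to the right of 0, and colonocyte (-3.27), enteroendocrine (-3.16) and P450 genes (-2.60) to the left.

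Genes of cell division had the largest median difference of the 49 lists. Of 30 genes of mitosis, 29 were higher and 0 lower, with a median difference of 3.43 against 0.031 for all genes, and 25 were kept under every alternative. Cdk1, the kinase that drives entry into mitosis, lay at -3.67, -4.05 and -6.62 in EV lines 1 to 3 and at -0.13, 0.046 and -0.79 in BRAF lines 1 to 3. Every BRAF line was above every EV line, and EV line 3 was the lowest. Cdk1 rose by 4.49 ± 0.58 (SE, adjusted p = 0.000149), a 22.5-fold rise, with Cdk1 and Ccnb1 well above background on 2 and Bub1 on 1 of the 3 EV arrays. Its cyclins followed: Ccnb1 lay at -1.77, -2.85 and -5.63 in EV and at 1.56, 1.04 and 0.26 in BRAF lines and rose by 4.37 ± 0.69 (SE, adjusted p = 0.000447), and Ccnb2 rose by 4.0 ± 0.64 (SE, adjusted p = 0.000485). Among genes that check or complete the division, Bub1 of the spindle checkpoint rose by 3.99 ± 0.50 (SE, adjusted p = 0.000121), Plk1 by 3.70 ± 0.61 (SE, adjusted p = 0.000579), and Cdc20, the activator of the anaphase-promoting complex, by 3.75 ± 0.52 (SE, adjusted p = 0.000208). Aurka, a kinase of the spindle poles, rose by 3.34 ± 0.47 (SE, adjusted p = 0.000238) and Birc5, a member of the chromosomal passenger complex, by 2.88 ± 0.46 (SE, adjusted p = 0.000522). Top2a, which untangles replicated DNA, lay at -1.82, -3.23 and -4.69 in EV and at 1.20, 0.054 and -0.092 in BRAF lines (3.63 ± 0.55 SE, adjusted p = 0.000358). Mki67, the usual marker of dividing cells, lay at 0.71, -0.41 and -2.86 in EV and 3.44, 2.29 and 2.04 in BRAF lines (3.45 ± 0.65 SE, adjusted p = 0.00143). In each of these genes EV line 3 was the lowest array and BRAF line 1 or 2 the highest. Mki67 lost its call in the fit of the 6 base medium arrays alone (adjusted p = 0.0522). The mitosis median was 2.13 with normexp background correction.

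The 250 bases before the start of these genes, from the RefSeq table for build GRCm38.p6, are shown because mitotic genes as a class are known for a CCAAT box, the letters bound by NF-Y, beside a cell cycle homology region (CHR), here the letters TTTGAA. Both were searched on both strands, and capitals mark each match, written ATTGG or TTCAAA where it lies on the opposite strand, with no overlap between matches, in the promoters of Cdk1 (chr10:69352913-69353162, minus strand), Ccnb2 (chr9:70421555-70421804, minus strand) and Cdc20 (chr4:118437344-118437593, minus strand).
Cdk1: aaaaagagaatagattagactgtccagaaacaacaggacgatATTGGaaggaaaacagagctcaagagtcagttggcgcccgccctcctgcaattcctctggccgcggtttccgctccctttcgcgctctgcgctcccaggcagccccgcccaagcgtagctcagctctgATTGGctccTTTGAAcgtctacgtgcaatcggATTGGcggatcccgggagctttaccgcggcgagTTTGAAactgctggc
Ccnb2: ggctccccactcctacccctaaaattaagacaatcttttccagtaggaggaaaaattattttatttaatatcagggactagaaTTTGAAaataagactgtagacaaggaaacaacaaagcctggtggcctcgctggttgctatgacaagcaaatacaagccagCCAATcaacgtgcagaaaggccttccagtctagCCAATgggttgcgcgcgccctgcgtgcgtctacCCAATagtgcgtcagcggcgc
Cdc20: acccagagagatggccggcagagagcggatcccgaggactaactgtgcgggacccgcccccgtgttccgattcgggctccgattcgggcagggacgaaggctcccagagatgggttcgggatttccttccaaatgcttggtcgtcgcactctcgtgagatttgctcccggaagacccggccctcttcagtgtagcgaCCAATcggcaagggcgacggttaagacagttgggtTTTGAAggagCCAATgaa
Of 24 mitosis genes with a promoter in the table, 18 held CCAAT (75%), 7 held TTTGAA (29.2%) and 7 held both. The shares over 12572 promoters of tested genes were 36.2%, 11.7% and 4.45%. A match is a run of letters, not a measured binding site.

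Of genes of DNA replication, most rose as well. Of 30 tested, 25 were higher and 1 lower (median 1.75), and 19 were kept under every alternative. Mcm5, a subunit of the helicase that opens the DNA, lay at -1.54, -2.59 and -4.89 in EV lines and at 0.81, 0.73 and 0.16 in BRAF lines, so the groups did not overlap and EV line 3 was again the lowest. Mcm5 rose by 3.58 ± 0.62 (SE, adjusted p = 0.000799), Mcm2 by 3.15 ± 0.55 (SE, adjusted p = 0.000828) and Mcm7 by 1.74 ± 0.34 (SE, adjusted p = 0.00193). Cdt1, which loads the helicase, rose by 2.31 ± 0.36 (SE, adjusted p = 0.00043). Pola1, the catalytic subunit of the polymerase that starts new strands, rose by 3.61 ± 0.56 (SE, adjusted p = 0.0004), and Pole, of the leading-strand polymerase, by 2.03 ± 0.35 (SE, adjusted p = 0.000844). The enzymes that supply nucleotides moved the same way: Rrm1 and Rrm2, both subunits of ribonucleotide reductase, rose by 2.73 ± 0.44 (SE, adjusted p = 0.000491) and 2.67 ± 0.48 (SE, adjusted p = 0.00109), and thymidine kinase Tk1 by 2.95 ± 0.40 (SE, adjusted p = 0.000175). Mcm2 and Pola1 were well above background on 2 of the 3 EV arrays. Not every gene of the list rose. Pcna, the sliding clamp, lay at 2.40, 1.83 and 2.29 in EV and at 2.74, 2.26 and 2.23 in BRAF lines and did not pass the test (0.24 ± 0.31 SE, adjusted p = 0.588). Lower replication genes numbered 0 with normexp background correction and with line as a block in the 6 arrays alone. The replication median was 1.13 with normexp background correction.

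Replication genes are known as targets of E2F factors, so the letters TTTCCCGC and TTTGGCGC were searched on both strands in the same windows. They are in capitals, with CCAAT, in the strand as printed (GCGGGAAA, GCGCCAAA and ATTGG are the reverse complements) and with no overlap, in the promoters of Mcm7 (chr5:138171884-138172133, minus strand) and Pola1 (chrX:93632156-93632405, minus strand).
Mcm7: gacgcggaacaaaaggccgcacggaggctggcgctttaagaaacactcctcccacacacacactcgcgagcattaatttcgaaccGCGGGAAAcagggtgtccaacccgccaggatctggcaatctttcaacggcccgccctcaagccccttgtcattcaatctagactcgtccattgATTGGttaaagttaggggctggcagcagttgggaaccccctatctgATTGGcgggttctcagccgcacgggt
Pola1: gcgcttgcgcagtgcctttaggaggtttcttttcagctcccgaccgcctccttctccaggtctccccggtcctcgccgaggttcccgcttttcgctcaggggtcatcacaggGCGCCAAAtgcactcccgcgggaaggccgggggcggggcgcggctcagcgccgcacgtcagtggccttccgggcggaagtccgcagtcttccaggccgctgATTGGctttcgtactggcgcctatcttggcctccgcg
Either run of letters occurred in 6 of 24 replication promoters (25%), in 0 of 24 mitosis promoters and in 2.2% of all. CCAAT occurred in 16 replication promoters (66.7%).

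**Figure D2:**
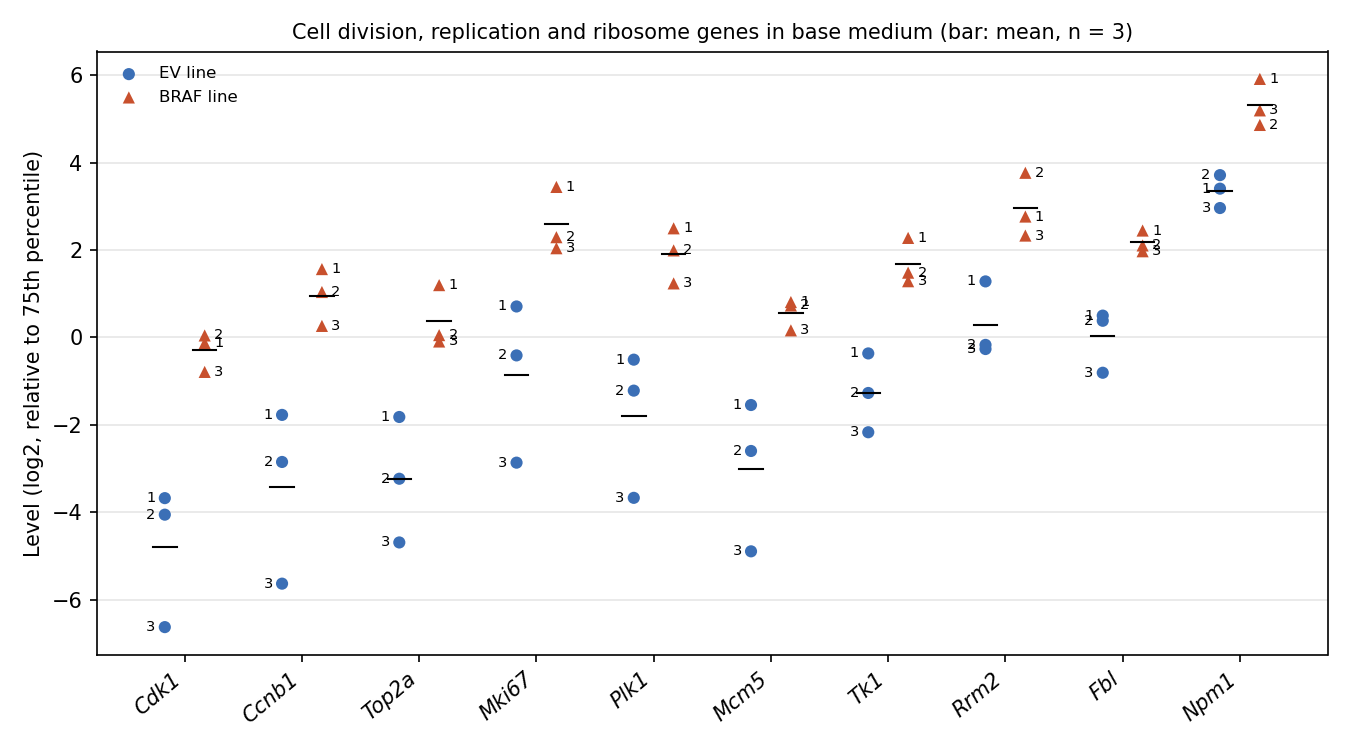
Level of 10 genes of mitosis, replication and ribosome assembly on each array in base medium, in log2 units relative to the array's 75th percentile. Circles are EV lines and triangles BRAF lines, numbered by line. No EV array reaches a BRAF array in any of the 10 genes, and in Cdk1 the EV lines span -6.62 to -3.67.

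Of 24 genes of cell cycle control, 12 were higher and 4 lower. Foxm1, a factor for mitotic genes, lay at -3.43, -3.90 and -5.51 in EV and at -1.20, -1.61 and -2.32 in BRAF lines and rose by 2.57 ± 0.43 (SE, adjusted p = 0.000657). Foxm1 and E2f8 were well above background on 2 EV arrays. Mybl2, a factor for genes of cell division, rose by 2.23 ± 0.39 (SE, adjusted p = 0.00091), E2f1 by 1.44 ± 0.31 (SE, adjusted p = 0.00343) and the repressor E2f8 by 3.0 ± 0.55 (SE, adjusted p = 0.00121). The G1 kinase Cdk4 rose by 1.87 ± 0.24 (SE, adjusted p = 0.000149), and its partner Ccnd1 lay at 1.75, 3.43 and 0.76 in EV and at 4.72, 4.18 and 4.65 in BRAF lines (2.53 ± 0.48 SE, adjusted p = 0.0014). CDK inhibitors went both ways. Cdkn2a, which encodes p16 and p19ARF, lay at 2.73, 3.25 and 2.77 in EV and 5.03, 4.22 and 4.43 in BRAF lines and rose by 1.64 ± 0.48 (SE, adjusted p = 0.0193). Cdkn1a, which encodes p21, lay at 3.47, 2.04 and 4.33 in EV lines against 1.20, 2.05 and 1.76 in BRAF lines, with EV line 2 inside the BRAF range, and fell by 1.61 ± 0.45 (SE, adjusted p = 0.016). Of its 3 probes, 2 were lower in BRAF organoids. Cdkn1c, which encodes p57, lay at 2.82, 1.55 and 3.12 in EV and -0.31, 1.76 and -0.32 in BRAF lines, with EV line 2 inside the BRAF range as well, and fell by 2.12 ± 0.51 (SE, adjusted p = 0.00643). Ccnd1 lost its call with line as a block in the 6 base medium arrays (adjusted p = 0.0695). Cdkn2a lost its call without EV line 1, EV line 3 or BRAF line 1 (adjusted p = 0.0594 to 0.0773). Cdkn1a lost its call without EV line 1, EV line 3 or BRAF line 1 (adjusted p = 0.0522 to 0.0827) and in the fit of the 6 base medium arrays alone, with line as a block in those 6 arrays or with the mean over its probes (adjusted p = 0.111 to 0.254). Cdkn1c lost its call in the fit of the 6 base medium arrays alone or with line as a block in those 6 arrays (adjusted p = 0.0849 to 0.143). Lower control genes numbered 2 with the mean over the probes of each gene, in the fit of the 6 arrays alone and with BRAF line 1 left out, 0 with line as a block in the 6 arrays alone, and 1 with EV line 1 or EV line 3 left out.

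Repair of broken or blocked DNA belongs to the same phase of the cycle. Of 22 genes of homologous recombination, the Fanconi pathway and mismatch repair, 15 were higher and 0 lower (median 1.21). Fanci lay at -4.24, -5.85 and -7.38 in EV and at -0.93, -1.55 and -2.28 in BRAF lines and rose by 4.24 ± 0.60 (SE, adjusted p = 0.000227), Brca2 by 3.54 ± 0.51 (SE, adjusted p = 0.000249) and the helicase Blm by 1.70 ± 0.27 (SE, adjusted p = 0.000448). Fanci was well above background on 1 EV array and Brca2 on 2. Higher repair genes numbered 9 in both fits of the 6 arrays alone. The repair median was 0.59 with normexp background correction. Of 24 genes of ribosome assembly, 22 were higher and 0 lower (median 1.63). Fbl, which methylates ribosomal RNA, lay at 0.50, 0.38 and -0.81 in EV and 2.45, 2.10 and 1.97 in BRAF lines and rose by 2.15 ± 0.27 (SE, adjusted p = 0.000112). Npm1 rose by 1.96 ± 0.27 (SE, adjusted p = 0.000202), nucleolin Ncl by 1.67 ± 0.27 (SE, adjusted p = 0.000519), and Polr1b, a subunit of RNA polymerase I, by 2.21 ± 0.42 (SE, adjusted p = 0.00166). Higher ribosome genes numbered 14 with line as a block in the 6 arrays alone. The ribosome median was 1.08 with normexp background correction. Of 10 genes of the Myc network, 1 was higher and 2 lower (median -0.43), with 7 differences negative and 3 positive. Myc, the factor known to drive ribosome assembly, lay at 2.23, 2.28 and 1.30 in EV and at 4.19, 3.50 and 3.71 in BRAF lines and rose by 1.87 ± 0.36 (SE, adjusted p = 0.00162). Its partner Max moved the other way, from 3.78, 3.50 and 4.52 in EV to 1.65, 1.93 and 1.95 in BRAF lines (-2.10 ± 0.35 SE, adjusted p = 0.000644). Lower Myc network genes numbered 1 in both fits of the 6 arrays alone and with EV line 1, EV line 3 or BRAF line 1 left out. The Myc network median was -0.18 with normexp background correction, and -0.23 on the authors' deposited log2 values.

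The same BRAF and EV lines were also profiled after the same 48 h in ENSW medium, so named in the labels, and a test of the difference between the 2 media asked whether the contrast depended on the medium. It passed for 756 genes (3.53%). In 638 the BRAF minus EV difference was more positive in base medium (2.98%) and in 118 it was more negative (0.551%). Among them were 26 of 30 mitosis genes and 20 of 30 replication genes, all with the more positive difference in base medium. In ENSW medium, where 6.22% of all genes were called (4.8% higher and 1.42% lower), 2 mitosis genes were higher and 0 lower, with a median difference of -0.15. Racgap1, which is needed to split the daughter cells, lay in ENSW medium at 1.72, 2.0 and 1.59 in EV and at 1.06, 1.66 and 1.56 in BRAF lines. Its base medium levels were -1.84, -2.14 and -2.93 in EV and 1.14, 0.44 and 0.27 in BRAF lines. Its level in the EV lines was lower in base than in ENSW medium, and the groups were parted in base medium and overlapped in ENSW medium. The difference was -0.35 (adjusted p = 0.529) in ENSW and 2.92 in base medium, and that between them 3.27 (adjusted p = 0.00412), kept under every alternative. Racgap1 and Kif4 stand outside the mitosis list. Tk1 differed between media by 3.43 (adjusted p = 0.0132) and the chromosome motor Kif4 by 3.14 (adjusted p = 0.00494). Of the genes that moved the other way, Eif4ebp3, which restrains translation, lay at 3.16, 2.61 and 3.50 in EV and at 0.52, 0.69 and 0.48 in BRAF lines in base medium and differed between media by -2.04 (adjusted p = 0.00888).

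The count of genes that differed between media was the least stable result. With line as a block it was 1376, and in the fit of the 12 EV and BRAF arrays alone it was 11. In that fit Racgap1 was still called, 0 mitosis genes and 0 replication genes were, and Tk1 (adjusted p = 0.0746), Kif4 (adjusted p = 0.0505) and Eif4ebp3 (adjusted p = 0.0728) were not. With 1 array left out, the count of 26 mitosis genes fell to 3 for each of 5 arrays (EV line 2 in ENSW, EV line 3 in ENSW, BRAF line 1 in ENSW, BRAF line 1 in base and BRAF line 3 in ENSW medium), to 12 for EV line 1 in ENSW and to 21 for BRAF line 2 in base medium. The count of 20 replication genes ranged from 3 to 21 over the same fits. The median difference between media stayed at 2.30 to 3.92 for mitosis genes over all these fits.

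**Figure D3:**
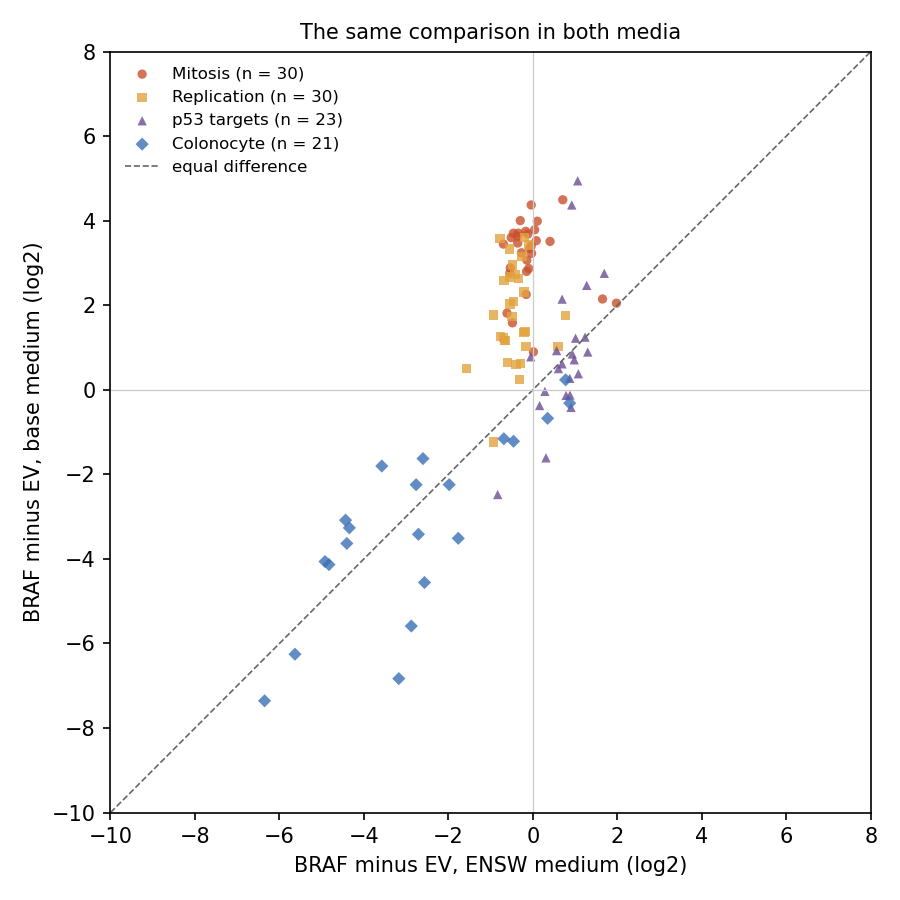
BRAF minus EV difference in base medium (vertical) against that in ENSW medium (horizontal) for the tested members of the mitosis, replication, colonocyte and p53 lists, on the log2 scale. All 30 mitosis genes lie above the line of equal difference, with a median of 3.43 in base and -0.15 in ENSW medium, and the colonocyte genes have medians of -3.27 and -2.76.

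Genes of the mature absorptive cell had the lowest median of the 49 lists. Of 21 colonocyte genes 0 were higher and 14 lower, with a median of -3.27, and 8 were kept under every alternative. Slc26a3, the chloride-bicarbonate exchanger of the colonocyte surface, lay at 3.85, 1.20 and 3.51 in EV and at -4.12, -4.26 and -1.83 in BRAF lines. BRAF line 3 had the highest level of the BRAF lines and EV line 2 the lowest of the EV lines, and the groups did not overlap. The difference was -6.25 ± 1.05 (SE, adjusted p = 0.000666), 76.3-fold. Slc9a3, the sodium-proton exchanger, lay at 3.06, 1.72 and 3.27 in EV and -3.09, -7.31 and -3.62 in BRAF lines, with BRAF line 2 not well above background, and changed by -7.36 ± 1.82 (SE, adjusted p = 0.00779). The water channel Aqp8 lay at 7.03, 1.60 and 6.90 in EV and -3.66, -1.89 and 0.59 in BRAF lines (-6.83 ± 1.63 SE, adjusted p = 0.00636). Here EV line 2 stood more than 5 units under the other EV lines, yet above all BRAF lines. Guca2a and Guca2b, the guanylin peptides that regulate salt and water, fell from 9.24, 8.83 and 9.34 in EV to 4.50, 6.10 and 5.92 in BRAF lines (-3.63 ± 0.81 SE, adjusted p = 0.0042) and from 2.19, 3.89 and 3.64 in EV to 0.062, 0.78 and -0.91 in BRAF lines (-3.27 ± 0.76 SE, adjusted p = 0.00564). Ceacam20, an adhesion protein of the brush border, changed by -3.42 ± 0.44 (SE, adjusted p = 0.000143). Krt20, a marker of surface cells, lay at 8.05, 6.81 and 8.40 in EV and 4.34, 6.50 and 5.69 in BRAF lines, without overlap, and did not pass the test (-2.25 ± 1.17 SE, adjusted p = 0.16).

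Ion transport genes as a list were mixed: 2 of 21 were higher and 6 lower (median -1.22). Slc13a2, a citrate carrier, lay at 4.45, 3.32 and 5.70 in EV and at -3.88, -4.23 and 0.0013 in BRAF lines (-7.20 ± 0.98 SE, adjusted p = 0.000185), with BRAF line 3 about 4 units above the other BRAF lines. The potassium channel Kcnn4 was the member that rose most, from -1.33, -1.09 and -2.23 in EV to 2.62, 2.42 and 3.57 in BRAF lines (4.42 ± 0.41 SE, adjusted p = 1.74e-05), a 21.4-fold difference without overlap. Cftr, the chloride channel of crypt cells, rose by 2.56 ± 0.54 (SE, adjusted p = 0.00314). Cftr lost its call in the fit of the 6 base medium arrays alone (adjusted p = 0.0628). Higher transport genes numbered 1 in the fit of the 6 arrays alone. Lower transport genes numbered 10 with normexp background correction. None of 10 carbonic anhydrases was called, and Car1, the most typical of the colon, lay at 9.39, 8.96 and 9.54 in EV and 6.54, 7.63 and 8.31 in BRAF lines (-1.80 ± 0.91 SE, adjusted p = 0.146). Car1 passed the test in the fit of the 6 base medium arrays alone (adjusted p = 0.049).

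The brush border list held 12 lower and 0 higher genes of 23 (median -2.17, or -1.66 with genes below background set to their bound). Alpi, intestinal alkaline phosphatase, lay at 1.97, 1.63 and 4.46 in EV and -1.26, -1.01 and -1.31 in BRAF lines and changed by -3.88 ± 0.71 (SE, adjusted p = 0.00113). Its promoter is shown because the letters CAAAGTCCA, a form of the site of Hnf4 factors that act in enterocytes, lie close to the start (chr1:87101607-87101856, minus strand, both strands searched, match in capitals).
Alpi: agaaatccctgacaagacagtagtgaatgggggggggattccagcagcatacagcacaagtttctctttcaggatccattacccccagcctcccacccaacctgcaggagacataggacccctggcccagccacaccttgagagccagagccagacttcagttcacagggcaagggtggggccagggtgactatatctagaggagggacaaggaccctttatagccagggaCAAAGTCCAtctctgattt
They occurred in 2 of 21 brush border promoters, 0 of 19 colonocyte promoters and 0.382% of all promoters. Mep1b, a subunit of the metalloprotease meprin, lay at 6.05, 6.18 and 6.63 in EV and at 2.79, 4.08 and 3.21 in BRAF lines (-2.93 ± 0.76 SE, adjusted p = 0.0101). Enpep, an aminopeptidase, lay at 1.74, -4.77 and 4.03 in EV lines, so line 2 stood far under the others, and at -6.81, -7.54 and -8.06 in BRAF lines, where it was not well above background. It was at least 57.6-fold lower (adjusted p = 0.00368), a bound that sets the EV mean against the lowest signal well above background. Enpep lost its call in the fit of the 6 base medium arrays alone or with line as a block in those 6 arrays (adjusted p = 0.0547 to 0.0577). Lower brush border genes numbered 6 in the fit of the 6 arrays alone and with EV line 3 left out, 4 with line as a block in the 6 arrays alone, and 7 with BRAF line 1 left out. The brush border median was -1.40 with EV line 3 left out.

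Of 21 genes of ketone and fatty acid oxidation, 10 were lower and 1 higher (median -0.71). Cpt1a, which admits fatty acids to mitochondria, lay at 2.79, 2.69 and 2.83 in EV and 1.03, 0.93 and 1.76 in BRAF lines without overlap (-1.53 ± 0.30 SE, adjusted p = 0.00194). The peroxisomal enzyme Ehhadh changed by -2.57 ± 0.47 (SE, adjusted p = 0.00115). Of 16 genes of fat uptake and lipoproteins, a separate list, 4 were lower and 1 higher (median -0.98). Fabp2 of that list, the fatty acid carrier of the absorptive cell, lay at 7.84, 6.53 and 8.90 in EV and 1.90, 2.87 and 1.74 in BRAF lines (-5.59 ± 0.93 SE, adjusted p = 0.000666). Scarb1, a lipoprotein receptor and the higher gene of the fat uptake list, rose by 2.43 ± 0.29 (SE, adjusted p = 8.89e-05). Lower fat uptake genes numbered 1 with line as a block in the 6 arrays alone. The fat uptake median was -0.47 with EV line 3 left out. Higher oxidation genes numbered 0 with the mean over the probes of each gene and in both fits of the 6 arrays alone. Lower oxidation genes numbered 6 with line as a block in the 6 arrays alone.

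Of 17 cytochrome P450 genes, 8 were lower and 0 higher (median -2.60). Cyp4f14, a fatty acid hydroxylase, lay at 6.78, 5.77 and 7.61 in EV and at 1.49, 2.32 and 2.84 in BRAF lines (-4.50 ± 0.83 SE, adjusted p = 0.0012), and Cyp4b1 at 3.23, 1.48 and 4.98 in EV and -1.19, -1.99 and -1.26 in BRAF lines (-4.71 ± 1.02 SE, adjusted p = 0.00368). Cyp2d10, outside the list and among the largest falls, lay at 2.33, 3.71 and 2.84 in EV and -4.43, -4.21 and -2.49 in BRAF lines (-6.67 ± 0.75 SE, adjusted p = 6.67e-05). The carboxylesterase Ces2a lay at 3.93, 3.01 and 5.51 in EV and -3.14, -1.37 and -1.75 in BRAF lines (-6.24 ± 1.03 SE, adjusted p = 0.000623). Conjugating enzymes split. Ugt2b5 changed by -4.82 ± 0.96 (SE, adjusted p = 0.00207) and was well above background on 1 BRAF array, whereas the glutathione transferase Gsta3 rose from 0.59, 1.63 and -0.72 in EV to 4.84, 3.40 and 3.50 in BRAF lines (3.41 ± 0.58 SE, adjusted p = 0.000756). Lower P450 genes numbered 4 with EV line 3 left out, and 5 with BRAF line 2 left out. The P450 median was -1.69 with normexp background correction. Higher conjugation genes numbered 1 in both fits of the 6 arrays alone, with no dim-probe filter and with slide as a random block. Their number was also 1 with EV line 2 or BRAF line 1 left out, and 4 without BRAF line 2. Lower conjugation genes numbered 5 with normexp background correction and on the authors' deposited log2 values. They numbered 7 in the fit of the 6 arrays alone, 5 with the block there, and 1 with the stricter filter.

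Of 19 goblet cell genes, 7 were lower and 0 higher (median -2.57). Zg16, a lectin of the mucus, lay at 7.78, 5.80 and 7.62 in EV and at 0.046, -1.88 and 1.23 in BRAF lines, changing by -7.27 ± 0.91 (SE, adjusted p = 0.000122), 154-fold. Clca1, a mucus-processing protease, lay at 5.88, 3.98 and 5.99 in EV and -1.28, -2.0 and 0.81 in BRAF lines (-6.11 ± 0.81 SE, adjusted p = 0.000164), and trefoil factor Tff3 at 6.91, 5.83 and 6.53 in EV and 0.44, -1.10 and 2.63 in BRAF lines (-5.77 ± 1.23 SE, adjusted p = 0.00326). In all these genes BRAF line 2 was the lowest and line 3 the highest of its group. Muc2, the mucin that builds the gel, followed the same order, at -2.86, -6.24 and 0.058 in BRAF lines against 5.04, 2.86 and 4.05 in EV lines (-7.0 ± 1.97 SE, adjusted p = 0.016), and was well above background on 2 BRAF arrays. Muc2 lost its call without EV line 1 or BRAF line 2 (adjusted p = 0.0549 to 0.0715). Spdef, a factor of goblet maturation, lay at 2.53, 1.35 and 1.24 in EV and -1.67, -3.81 and -0.61 in BRAF lines and did not pass the test (-3.74 ± 1.76 SE, adjusted p = 0.122). Spdef passed the test in the fit of the 6 base medium arrays alone or with line as a block in those 6 arrays (adjusted p = 0.0375 to 0.0408). Lower goblet genes numbered 4 with EV line 1 left out. The goblet median was -1.59 with normexp background correction.

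Of 20 enteroendocrine genes, 11 were lower and 0 higher, with a median of -3.16, or -2.50 with bounds. EV lines differed among themselves here. Pyy, peptide YY of the colon's L cells, lay at 2.09, -2.32 and 2.60 in EV lines and at -2.95, -3.45 and -3.03 in BRAF lines (-3.94 ± 0.89 SE, adjusted p = 0.00485), so EV line 2 lay nearer to the BRAF lines than to the other EV lines. Insl5, another L cell hormone, lay at 0.49, -3.69 and -1.88 in EV lines and was not well above background in BRAF lines (-6.38, -5.33 and -5.82). It was at least 14-fold lower (adjusted p = 0.00968). Pyy lost its call in the fit of the 6 base medium arrays alone or with line as a block in those 6 arrays (adjusted p = 0.0627 to 0.0808). Insl5 lost its call with normexp background correction or with line as a block in the 6 base medium arrays (adjusted p = 0.0524 to 0.0642). Lower enteroendocrine genes numbered 6 with normexp background correction and with BRAF line 2 left out, 5 with the stricter filter and with BRAF line 1 left out, 3 in the fit of the 6 arrays alone and with EV line 1 or EV line 3 left out, and 7 with line as a block in the 6 arrays alone. The enteroendocrine median was -0.94 with normexp background correction, and -1.57 on the authors' deposited log2 values. None of 11 tuft cell genes was called.

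Notch signalling holds cells back from the secretory fate. Of 18 genes of the pathway and of secretory fate, 7 were higher and 1 lower (median 0.59, or 0.32 with bounds). The receptor Notch1 lay at -3.0, -2.89 and -3.21 in EV and at -1.18, -1.38 and -0.84 in BRAF lines (1.90 ± 0.44 SE, adjusted p = 0.00568). Notch3 was not well above background in any EV line (-6.47, -5.56 and -6.59) and lay at -1.88, -3.09 and -1.90 in BRAF lines. It was at least 8.68-fold higher (adjusted p = 0.000181). The ligand Jag2 rose by 2.08 ± 0.35 (SE, adjusted p = 0.000711). Atoh1, the factor that starts the secretory fate, lay at -0.44, 0.16 and -1.35 in EV and -2.81, -6.33 and -2.45 in BRAF lines, with BRAF line 2 not well above background, and was not called (-3.32 ± 1.69 SE, adjusted p = 0.152). Atoh1 passed the test with normexp background correction, on the authors' deposited log2 values or with line as a block (adjusted p = 0.0207 to 0.0442). Higher Notch genes numbered 4 with normexp background correction. Lower Notch genes numbered 2 with quantile normalization, on the authors' deposited log2 values, with line as a block in the 6 arrays alone and with EV line 2 left out, 0 with the stricter filter and with EV line 1, EV line 3, BRAF line 1 or BRAF line 2 left out, and 3 with line as a block. The Notch median was 0.30 with normexp background correction, 0.34 on the authors' deposited log2 values, and 0.38 with BRAF line 1 left out.

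**Figure D4:**
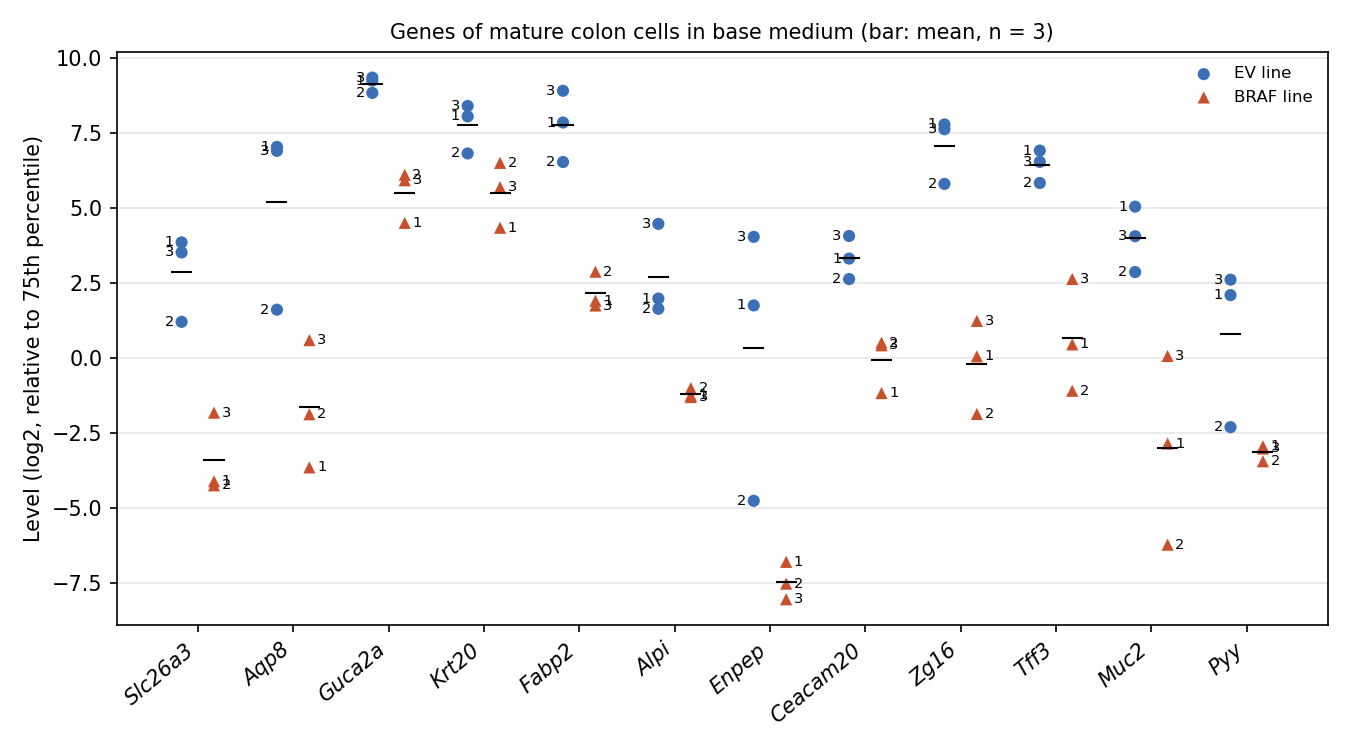
Level of 12 genes of mature colon cells on each array in base medium, in log2 units relative to the array's 75th percentile. Circles are EV lines and triangles BRAF lines, numbered by line. No BRAF array reaches an EV array in Slc26a3, Zg16, Fabp2, Pyy or Enpep. In Pyy and Enpep, EV line 2 lies apart from EV lines 1 and 3.

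Factors of intestinal identity did not move as 1 block. Of 20 tested, 4 were lower and 1 higher (median -0.56). Higher identity genes numbered 0 in both fits of the 6 arrays alone and with BRAF line 1 or BRAF line 2 left out. Lower identity genes numbered 2 with BRAF line 2 left out. The identity median was -0.32 with EV line 3 left out. Cdx2, which specifies intestine, lay at 5.81, 6.06 and 5.93 in EV and at 5.98, 5.34 and 5.71 in BRAF lines and was not called (-0.26 ± 0.25 SE, adjusted p = 0.451). Cdx2 passed the test with quantile normalization or on the authors' deposited log2 values (adjusted p = 0.0427 to 0.0457). Hnf4a lay at 6.48, 6.13 and 6.98 in EV and 5.68, 5.88 and 6.32 in BRAF lines and was not called either (-0.57 ± 0.62 SE, adjusted p = 0.518). Cdx1, the relative of Cdx2, was even across EV lines at 5.38, 5.38 and 4.67 and differed from line to line in BRAF organoids at 2.59, -6.34 and -1.04 (-6.74 ± 1.91 SE, adjusted p = 0.0162), with line 2 not well above background. Cdx1 lost its call without BRAF line 2 (adjusted p = 0.0691) and in the fit of the 6 base medium arrays alone or with line as a block in those 6 arrays (adjusted p = 0.0711 to 0.0736). Vdr, the vitamin D receptor, fell in all lines, from 4.72, 3.83 and 5.31 in EV to 0.33, -1.06 and 0.86 in BRAF lines (-4.58 ± 0.74 SE, adjusted p = 0.000518). None of 19 Hox genes and none of 14 keratins was called, but 3 Hox genes and 1 keratin were higher in both fits of the 6 arrays alone. Of 21 genes of fetal-like epithelium and YAP targets, 2 were higher and 0 lower, shares under the 17.9% and 13.1% of all genes. Lower genes of that list numbered 3 with line as a block, and 2 on the authors' deposited log2 values and with EV line 2 left out. Il33, an alarm cytokine, rose from -2.93, -2.25 and -2.47 in EV to 0.80, -0.071 and 0.23 in BRAF lines (2.87 ± 0.40 SE, adjusted p = 0.00021), and Crip2 from -0.76, -0.42 and 0.77 in EV to 3.50, 5.87 and 2.94 in BRAF lines (4.24 ± 1.05 SE, adjusted p = 0.00803). Ly6a, the usual marker of that state, was not called (0.54 ± 0.33 SE, adjusted p = 0.238). Ly6a passed the test without EV line 2 (adjusted p = 0.0447).

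Among 12 claudins of the tight junction, 1 was higher and 4 lower. Cldn23, a claudin of the colon surface, fell from 0.46, 0.29 and 1.21 in EV to -1.68, -1.47 and -0.97 in BRAF lines (-2.03 ± 0.37 SE, adjusted p = 0.0011). Cldn2, which forms a cation pore in crypts, lay at -3.75, -7.79 and -7.69 in EV lines, well above background in line 1 alone, and at -1.06, -1.93 and -0.81 in BRAF lines (5.15 ± 1.55 SE, adjusted p = 0.0224). Cldn2 lost its call without EV line 2, EV line 3, BRAF line 1 or BRAF line 3 (adjusted p = 0.0538 to 0.0896). Higher claudin genes numbered 2 with line as a block in the 6 arrays alone, and 0 with EV line 2, EV line 3, BRAF line 1 or BRAF line 3 left out. Lower claudin genes numbered 1 in both fits of the 6 arrays alone and with EV line 3 left out, and 2 with EV line 1, BRAF line 1 or BRAF line 3 left out. Of 14 genes of the cadherin switch and of epithelial-mesenchymal transition, 1 was higher and 3 were lower, and of these 1 kept the call with any single array left out. Higher transition genes numbered 0 with normexp background correction, with the mean over the probes of each gene, in both fits of the 6 arrays alone and with EV line 2, EV line 3, BRAF line 1 or BRAF line 2 left out. Lower transition genes numbered 0 with line as a block in the 6 arrays alone, and 1 with BRAF line 1 left out. Cdh1, E-cadherin, lay at 5.25, 4.81 and 5.05 in EV and 3.98, 4.62 and 4.64 in BRAF lines and was not called (-0.62 ± 0.25 SE, adjusted p = 0.0684). Cdh1 passed the test with quantile normalization or on the authors' deposited log2 values (adjusted p = 0.0167 to 0.0207). Of 8 genes of gastric mucosa, 1 was higher and 1 lower, and 0 kept the call with any single array left out. Both shares were under the 17.9% and 13.1% of all genes. Higher gastric genes numbered 0 with normexp background correction, in both fits of the 6 arrays alone and with EV line 1 or EV line 3 left out. Lower gastric genes numbered 2 on the authors' deposited log2 values, with line as a block and with EV line 2 left out, and 0 with no filter on dim probes, with slide as a random block, in both fits of the 6 arrays alone and with EV line 1, EV line 3, BRAF line 1 or BRAF line 2 left out.

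The share of output genes of the pathway that was called lay near the 31.1% of all genes. Of 21 feedback and target genes of ERK, 5 were higher and 1 lower, with a median of 0.41 against 0.031 for all genes. The share higher is near the 17.9% of all genes, and 3 were kept under every alternative. These were Spry1, a Sprouty inhibitor, the Pea3 factor Etv4, and Phlda1. Spry1 lay at -0.97, -1.36 and -0.91 in EV and at 0.015, 0.24 and 0.24 in BRAF lines (1.25 ± 0.24 SE, adjusted p = 0.00145). Etv4 lay at -0.43, -1.42 and -0.81 in EV and 1.23, 0.079 and 1.03 in BRAF lines (1.67 ± 0.32 SE, adjusted p = 0.00159), and Phlda1 at 2.52, 2.07 and 1.69 in EV and 3.98, 4.29 and 3.56 in BRAF lines (1.85 ± 0.40 SE, adjusted p = 0.00346). Dusp6, the phosphatase that removes the mark from ERK, lay at 3.97, 4.24 and 3.77 in EV and 4.24, 5.54 and 4.83 in BRAF lines. EV line 2 and BRAF line 1 stood at the same level to 2 decimals, and Dusp6 was not called (0.88 ± 0.38 SE, adjusted p = 0.0944). Dusp6 passed the test without BRAF line 1 (adjusted p = 0.0461) and with line as a block (adjusted p = 0.0328). In ENSW medium, the Dusp6 difference was 1.45 (adjusted p = 0.0384), and the 2 media did not differ beyond their spread (-0.57, adjusted p = 0.641). Of the 21 feedback and target genes, 5 were higher and 0 lower in ENSW medium (median 0.98). There 4.8% of all genes were higher and 1.42% lower. None of the 21 passed the test of the difference between media in the main fit. Higher feedback genes numbered 3 with no filter on dim probes, with slide as a random block, in the fit of the 6 arrays alone and with BRAF line 3 left out. Lower feedback genes numbered 0 with normexp background correction, with quantile normalization, on the authors' deposited log2 values, with no filter on dim probes, with slide as a random block, with line as a block in the 6 arrays alone and with EV line 1, EV line 3, BRAF line 1, BRAF line 2 or BRAF line 3 left out. The feedback median was 0.19 with normexp background correction, and 0.23 on the authors' deposited log2 values.

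Upstream, 2 of 19 genes of the RAS, RAF, MEK and ERK proteins and their regulators were higher and 6 lower (median -0.32), of which 1 kept the call with any single array left out. That gene was Mapk3, which encodes ERK1, at 5.30, 5.03 and 5.51 in EV and at 4.12, 4.49 and 4.55 in BRAF lines (-0.90 ± 0.19 SE, adjusted p = 0.00326). Mapk3 lost its call with line as a block in the 6 base medium arrays (adjusted p = 0.0783). Higher cascade genes numbered 0 with no filter on dim probes, in both fits of the 6 arrays alone and with EV line 1, EV line 2 or BRAF line 1 left out, and 1 with EV line 3 or BRAF line 2 left out. Lower cascade genes numbered 1 in the fit of the 6 arrays alone and with EV line 3 or BRAF line 1 left out, and 0 with line as a block in the 6 arrays alone. The cascade median was -0.17 on the authors' deposited log2 values, and -0.19 with BRAF line 3 left out. Of 12 EGF family ligands, receptors and regulators, 2 were higher and 4 lower. Higher EGF genes numbered 0 in both fits of the 6 arrays alone and with EV line 3 left out, and 1 with EV line 1 or BRAF line 1 left out. Lower EGF genes numbered 2 in both fits of the 6 arrays alone. The receptor Erbb2 fell from 2.49, 2.63 and 2.97 in EV to 1.36, 1.63 and 1.98 in BRAF lines (-1.04 ± 0.27 SE, adjusted p = 0.0103), and Lrig3, of a family of receptor regulators, from 0.13, 0.58 and -0.05 in EV to -2.21, -2.11 and -1.34 in BRAF lines (-2.11 ± 0.43 SE, adjusted p = 0.00257). Egfr lay at 1.98, 1.60 and 2.11 in EV and 0.16, 1.22 and 0.88 in BRAF lines, with BRAF line 1 the lowest (-1.14 ± 0.35 SE, adjusted p = 0.0229). Egfr lost its call without EV line 1, EV line 3 or BRAF line 1 (adjusted p = 0.0632 to 0.106) and in the fit of the 6 base medium arrays alone or with line as a block in those 6 arrays (adjusted p = 0.0629 to 0.0953). The ligands Areg and Ereg were not called (0.66 and 0.58, adjusted p = 0.583 and 0.659).

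Of 23 tested genes, p53 and its targets, 12 were higher and 2 lower (median 0.71). Eda2r, a death receptor, lay at -3.51, -3.51 and -3.90 in EV and at -0.59, -0.94 and -1.13 in BRAF lines (2.75 ± 0.20 SE, adjusted p = 3.03e-06). Phlda3, an inhibitor of Akt, lay at 1.44, 2.26 and 1.76 in EV and 4.07, 4.50 and 4.30 in BRAF lines (2.47 ± 0.27 SE, adjusted p = 6.08e-05), the nuclease Aen at 0.46, 0.93 and -0.16 in EV and 2.76, 2.63 and 2.27 in BRAF lines (2.14 ± 0.23 SE, adjusted p = 5.89e-05), and Ccng1 at 1.82, 1.77 and 2.16 in EV and 2.99, 3.29 and 3.14 in BRAF lines (1.22 ± 0.29 SE, adjusted p = 0.0066). In each of them the groups were parted by more than the spread within either. Gtse1 and Ckap2, which are p53-linked but are expressed in dividing cells, were not well above background in EV lines and were at least 11.4-fold and 22.5-fold higher (adjusted p = 5.26e-06 and 4.12e-06). Cdkn1a, the classic target, is among the 2 that fell, with the values given above. Mdm2, the ligase that degrades p53, lay at 2.97, 2.61 and 3.29 in EV and 3.22, 4.22 and 3.56 in BRAF lines (0.71 ± 0.26 SE, adjusted p = 0.0548). Mdm2 passed the test without EV line 3 or BRAF line 1 (adjusted p = 0.0269 to 0.0467) and with quantile normalization, on the authors' deposited log2 values, with the stricter filter, with line as a block or with a variance trend (adjusted p = 0.0259 to 0.0497). Higher p53 genes numbered 6 with line as a block in the 6 arrays alone. Lower p53 genes numbered 1 with the mean over the probes of each gene, in both fits of the 6 arrays alone and with BRAF line 3 left out, and 0 with EV line 1, EV line 3 or BRAF line 1 left out. Of 21 cell death genes 1 was higher and 4 lower. Higher death genes numbered 2 with line as a block, and 0 with line as a block in the 6 arrays alone. Lower death genes numbered 2 with no filter on dim probes and with BRAF line 1 or BRAF line 2 left out, 8 with line as a block, and 1 in both fits of the 6 arrays alone and with EV line 1 or EV line 3 left out.

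Of 19 Wnt targets and feedback genes tested, 6 were higher and 0 lower (median 0.89, or 0.59 with bounds). The median depended on BRAF line 1. Higher Wnt genes numbered 3 with normexp background correction, on the authors' deposited log2 values, with no filter on dim probes and with BRAF line 1 left out, and 2 in both fits of the 6 arrays alone and with EV line 3 left out. The Wnt median was 0.40 with normexp background correction, 0.57 on the authors' deposited log2 values, 0.17 with BRAF line 1 left out, and 1.35 with BRAF line 3 left out. The 2 kept under every alternative were Myc and Cd44, an adhesion receptor of crypt cells, at -0.07, -0.63 and -1.43 in EV and at 1.20, 1.22 and 1.88 in BRAF lines (2.15 ± 0.43 SE, adjusted p = 0.00206). Axin2, the most used readout of the pathway, lay at -3.22, -3.04 and -2.93 in EV and -0.69, -2.89 and -3.34 in BRAF lines (0.75 ± 1.03 SE, adjusted p = 0.613). BRAF line 1 stood far above the EV range, BRAF line 2 just above it and BRAF line 3 below it. Of 15 crypt stem cell genes 1 was called, and 0 kept the call with any single array left out. Higher stem cell genes numbered 0 in both fits of the 6 arrays alone and with EV line 1, EV line 3 or BRAF line 1 left out. Lgr5, the receptor for R-spondin, was not well above background in any EV line and in BRAF lines lay at -0.68, -7.54 and -6.62, above background in line 1 alone, and it was not called (2.18 ± 2.42 SE, adjusted p = 0.528). Ascl2, the stem cell factor, followed the same lines at -2.52, -5.92 and -4.55 in EV and 3.12, -5.07 and -3.99 in BRAF lines (2.35 ± 2.69 SE, adjusted p = 0.54). Without BRAF line 1 the differences of Axin2 and Ascl2 turned, to -0.056 and -0.20. None of 3 secreted Wnt antagonists was called. Of 15 BMP pathway genes, 1 was higher and 1 lower, shares under the 17.9% and 13.1% of all genes. The one that rose was Nog, which encodes Noggin, from 0.58, 0.84 and 1.04 in EV to 2.60, 2.46 and 1.59 in BRAF lines (1.40 ± 0.29 SE, adjusted p = 0.00251). Nog lost its call with line as a block in the 6 base medium arrays (adjusted p = 0.0692). Higher BMP genes numbered 2 with normexp background correction, on the authors' deposited log2 values, with line as a block, in the fit of the 6 arrays alone and with EV line 3 left out, and 0 with line as a block in the 6 arrays alone. Lower BMP genes numbered 0 with no filter on dim probes, with slide as a random block, in both fits of the 6 arrays alone and with EV line 3, BRAF line 1, BRAF line 2 or BRAF line 3 left out, and 2 with EV line 2 left out. Of 9 Hedgehog genes 3 were higher and 0 lower. Higher Hedgehog genes numbered 1 in the fit of the 6 arrays alone.

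Of 20 writers, helpers and erasers of DNA methylation, 5 were higher and 5 lower. Uhrf1, which brings the maintenance enzyme to new DNA, lay at -1.88, -3.14 and -5.39 in EV and at 0.69, 0.28 and -0.26 in BRAF lines (3.70 ± 0.63 SE, adjusted p = 0.000697), with EV line 3 the lowest as in Mcm5. Uhrf1 was well above background on 2 EV arrays and Hells on 1. Hells, a remodeller that aids methylation, rose by 2.62 ± 0.37 (SE, adjusted p = 0.000221). Dnmt1, the maintenance enzyme, lay at -0.19, -0.19 and -0.49 in EV and 1.30, 0.64 and 0.18 in BRAF lines (1.0 ± 0.23 SE, adjusted p = 0.00522). The eraser Tet2 fell from 1.0, 0.76 and 1.40 in EV to -0.0088, -0.35 and -0.074 in BRAF lines (-1.20 ± 0.29 SE, adjusted p = 0.00704). Dnmt1 lost its call in the fit of the 6 base medium arrays alone or with line as a block in those 6 arrays (adjusted p = 0.0758 to 0.0821). Higher methylation genes numbered 3 in the fit of the 6 arrays alone, and 2 with line as a block in the 6 arrays alone. Lower methylation genes numbered 1 in both fits of the 6 arrays alone, 3 with EV line 1 or EV line 3 left out, and 2 with BRAF line 1 left out. Of 25 Polycomb genes, 9 were higher and 3 lower. Cbx6, a reader of the Polycomb mark, rose from -2.38, -1.21 and -2.47 in EV to 0.68, 1.32 and 1.85 in BRAF lines (3.30 ± 0.36 SE, adjusted p = 5.52e-05) and Phc1, of the same complex, fell from -1.39, -1.88 and -1.15 in EV to -2.80, -2.73 and -2.55 in BRAF lines (-1.22 ± 0.20 SE, adjusted p = 0.000529). Ezh2, the methyltransferase, was not called (0.47 ± 0.20 SE, adjusted p = 0.0916). Higher Polycomb genes numbered 4 with normexp background correction and in the fit of the 6 arrays alone, 2 with line as a block in the 6 arrays alone, and 5 with EV line 1, EV line 3 or BRAF line 3 left out. Lower Polycomb genes numbered 1 in both fits of the 6 arrays alone. Of 15 genes of the CpG island methylator panel or known for silencing, 2 were higher and 1 lower, Cdkn2a among the higher. Both shares were under the 17.9% and 13.1% of all genes. Higher panel genes numbered 1 in both fits of the 6 arrays alone and with EV line 1, EV line 3 or BRAF line 2 left out, and 0 with BRAF line 1 left out. Lower panel genes numbered 2 with quantile normalization, on the authors' deposited log2 values, with line as a block and with EV line 2 left out, and 0 in both fits of the 6 arrays alone.

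The largest single rise was in a germline gene. Rhox5, a homeobox gene of the X chromosome known from testis and placenta, lay at -4.15, -4.28 and -4.64 in EV lines and at 2.17, 8.45 and 3.46 in BRAF lines. All BRAF lines were far above the EV lines and line 2 stood more than 4 units above the others. The difference was 9.05 ± 1.85 (SE, adjusted p = 0.00252). Of 14 germline and early embryo genes, 6 were higher and 3 lower. Ssxb10, a cancer-testis gene, went down, from -2.43, 0.99 and 0.87 in EV to -6.03, -7.22 and -3.76 in BRAF lines (-5.48 ± 0.84 SE, adjusted p = 0.000387), as did Ssxb1 (-5.35 ± 0.82 SE, adjusted p = 0.000384) and Ssxb9 (-1.85 ± 0.37 SE, adjusted p = 0.00195). Ssxb1 and Ssxb10 were well above background on 1 BRAF array. The Ssxb genes are close copies of each other, so a probe may read more than 1 of them. Gm4340, a gene outside the lists that has only a number for a name, was not well above background in EV lines (-5.35, -5.38 and -7.55) and lay at -0.17, 1.49 and 0.26 in BRAF lines, at least 58.7-fold higher (adjusted p = 0.00131). Zscan4e, one of several close copies active in the early embryo, was at least 30.9-fold higher (adjusted p = 0.0139). Zscan4e lost its call without EV line 3 (adjusted p = 0.053) and with normexp background correction (adjusted p = 0.098). Higher germline genes numbered 1 with normexp background correction, and 2 with EV line 3 left out. Lower germline genes numbered 1 with the stricter filter. Cysrt1, outside the lists, rose from -3.16, -2.83 and -2.71 in EV to 0.72, 2.66 and 3.20 in BRAF lines (5.10 ± 0.70 SE, adjusted p = 0.00021).

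The serum amyloids Saa1, Saa2 and Saa3, acute phase proteins made by gut epithelium, all fell. Saa1 lay at 4.70, 5.79 and 6.0 in EV and at 0.71, 0.61 and 1.5 in BRAF lines (-4.56 ± 0.39 SE, adjusted p = 8.15e-06), Saa2 changed by -4.82 ± 0.60 (SE, adjusted p = 0.000114) and Saa3 by -4.20 ± 0.76 (SE, adjusted p = 0.00112). Saa1 and Saa2 are near-identical, so their probes may share signal. Pigr, which carries IgA across the epithelium, fell from 5.22, 5.26 and 5.05 in EV to 3.56, 3.57 and 3.82 in BRAF lines (-1.53 ± 0.27 SE, adjusted p = 0.000809). Of 27 acute phase, antimicrobial and chemokine genes 6 were lower and 1 higher (median -1.26, or -0.68 with bounds). Higher antimicrobial genes numbered 2 with line as a block. The antimicrobial median was -0.38 with normexp background correction, -0.78 on the authors' deposited log2 values, and -0.53 with BRAF line 1 left out. Of 26 interferon response genes 2 were lower and 0 higher, a share under the 13.1% of all genes called lower, while 24 differences were below 0 (median -1.10). Lower interferon genes numbered 4 with the stricter filter, with line as a block and with BRAF line 2 left out, and 1 in both fits of the 6 arrays alone and with EV line 1, EV line 3 or BRAF line 1 left out. The interferon median was -0.60 with normexp background correction, -0.72 with EV line 1 left out, -0.13 with BRAF line 1 left out, and -1.97 with BRAF line 2 left out. The factor Irf1 fell from 4.77, 4.79 and 5.18 in EV to 1.80, 3.49 and 2.91 in BRAF lines (-2.18 ± 0.40 SE, adjusted p = 0.00118), whereas Isg15 lay at 6.05, 3.21 and 2.50 in EV and -0.62, 4.96 and 1.76 in BRAF lines, spread over 5 units among BRAF lines, and was not called (-1.89 ± 1.53 SE, adjusted p = 0.373). Of 17 MHC class I and II genes, 7 were lower and 0 higher (median -1.01). H2-K1, a class I heavy chain, lay at 7.11, 6.70 and 7.26 in EV and 5.11, 6.43 and 5.87 in BRAF lines (-1.22 ± 0.30 SE, adjusted p = 0.00794). H2-K1 lost its call in the fit of the 6 base medium arrays alone or with line as a block in those 6 arrays (adjusted p = 0.0728 to 0.107). Lower MHC genes numbered 2 in the fit of the 6 arrays alone, 1 with line as a block in the 6 arrays alone, and 4 with EV line 1 left out.

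In central metabolism, 9 of 29 cholesterol and fatty acid synthesis genes were higher and 0 lower (median 0.49). Idi1 rose from 3.23, 2.43 and 2.30 in EV to 4.11, 4.01 and 3.66 in BRAF lines (1.27 ± 0.26 SE, adjusted p = 0.00238) and Fdps, a later step of the same pathway, from 5.40, 4.79 and 4.56 in EV to 6.29, 6.17 and 5.74 in BRAF lines (1.15 ± 0.25 SE, adjusted p = 0.00402). Higher synthesis genes numbered 5 in the fit of the 6 arrays alone, and 4 with line as a block in the 6 arrays alone. Of 18 glycolysis genes 3 were higher and 1 lower, shares under the 17.9% and 13.1% of all genes. Higher glycolysis genes numbered 1 with line as a block in the 6 arrays alone. Lower glycolysis genes numbered 0 with normexp background correction, in both fits of the 6 arrays alone and with EV line 1, EV line 3 or BRAF line 1 left out, and 2 with quantile normalization, on the authors' deposited log2 values, with line as a block and with EV line 2, BRAF line 2 or BRAF line 3 left out. Hk1, which takes up the first step, rose from 5.97, 5.94 and 5.51 in EV to 7.28, 6.74 and 6.87 in BRAF lines (1.16 ± 0.17 SE, adjusted p = 0.000288). Of 27 nuclear genes of the respiratory chain 3 were lower and 0 higher, also under the shares of all genes. Lower respiratory genes numbered 7 with quantile normalization, 8 on the authors' deposited log2 values, 5 with line as a block and with a variance trend, 0 in both fits of the 6 arrays alone and with EV line 1 left out, and 1 with BRAF line 2 or BRAF line 3 left out. The list of integrins and laminins held 2 higher and 2 lower of 18, with 1 kept when any single array was left out. Its shares were under those of all genes as well. Higher integrin or laminin genes numbered 1 in the fit of the 6 arrays alone and with EV line 1, EV line 3 or BRAF line 2 left out, and 0 with line as a block in the 6 arrays alone. Lower integrin or laminin genes numbered 1 with normexp background correction, with the mean over the probes of each gene and with EV line 1 or EV line 2 left out, and 0 in both fits of the 6 arrays alone and with EV line 3, BRAF line 1 or BRAF line 3 left out.

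The lines differed within a type. The median level of the mitosis genes was -1.83, -2.25 and -3.75 in EV lines 1 to 3 and 1.27, 0.67 and 0.27 in BRAF lines 1 to 3, so EV line 3 was lowest and BRAF line 1 highest. The colonocyte median was 5.45, 4.53 and 6.63 in EV and 1.90, 2.26 and 3.04 in BRAF lines, and the goblet median 4.33, 1.35 and 2.86 in EV and -1.06, -2.0 and 0.058 in BRAF lines. EV line 2 had the lowest colonocyte and goblet medians of the EV lines, and BRAF line 2 the lowest goblet median of the BRAF lines. The enteroendocrine median was -1.35, -4.11 and -1.68 in EV and -4.84, -5.60 and -4.10 in BRAF lines, where EV line 2 lay inside the range of the BRAF lines. The p53 median was 0.46, 0.93 and 1.06 in EV and 0.90, 1.41 and 1.66 in BRAF lines, and these medians overlapped.

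**Figure D5:**
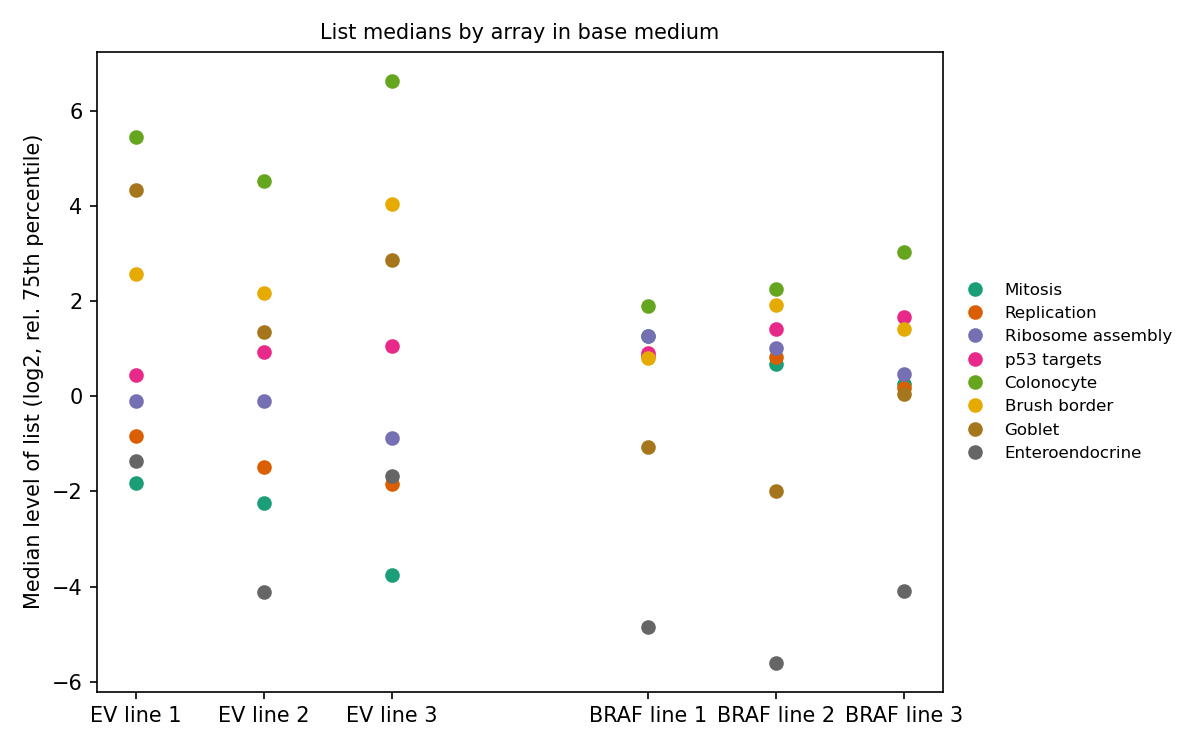
Median level of 8 gene lists on each of the 6 arrays in base medium, in log2 units relative to the array's 75th percentile. Each colour is 1 list, and the medians are over its tested members. The mitosis medians run from -3.75 (EV line 3) to 1.27 (BRAF line 1).

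Selected organoids, BrafV600E cultures chosen for growth in base medium, were profiled in that medium as well. They differed from the BRAF organoids in 2093 genes (9.77%), 991 higher (4.63%) and 1102 lower (5.14%). Of the colonocyte genes 14 of 21 were lower in selected than in BRAF organoids and 0 higher, and of the replication genes 20 of 30 were higher and 0 lower. Higher in selected organoids were also 10 of 22 repair genes, 9 of 24 ribosome genes and 4 of 30 mitosis genes, with none of these lists holding a lower gene. Guca2a fell by 8.99 from BRAF to selected organoids (adjusted p = 1.85e-05), and Krt20, not called between BRAF and EV organoids, fell by 7.92 (adjusted p = 0.00114). Cdkn2a, higher in BRAF than in EV organoids, fell by 1.61 from BRAF to selected organoids (adjusted p = 0.0486). The difference of selected from EV organoids shares the EV arrays with the comparison above, so the values stand side by side only: Cdk1 differed by 4.49 in BRAF and by 5.59 in selected organoids, Kcnn4 by 4.42 and 5.60, Vdr by -4.58 and -6.68, and Spry1 by 1.25 and 1.58. The count against BRAF organoids was 842 with BRAF line 2 left out, 1055 with BRAF line 3, 1251 with selected line 1 and likewise line 3, and 3372 with BRAF line 1. In a fit of these 6 arrays alone it was 232.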

How the data were processed

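Total RNA of each culture was labelled with Cy3 and hybridised to 1-colour Agilent arrays, per the labels' protocols. The scanner files hold spot intensity from Feature Extraction 10.7.3.1, per the file headers, and limma is named in the submitters' processing notes. A table of log2 values that the authors deposited served as an alternative. The array design is annotated on mm9, per the file headers, and promoters come from the RefSeq table for GRCm38.p6.

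Control spots and outlier flags were left out, spots of a probe averaged, and log2 processed intensity was centred on each array's 75th percentile. Kept were 26826 probes that rose well above background on 3 or more of 18 arrays, with the brightest probe per gene. One limma 3.58.1 model (R 4.3.3) with a mean per group was fitted to 18 arrays (EV, BRAF and selected organoids), with 12 residual degrees of freedom and Benjamini-Hochberg adjustment over 21423 genes. The same fit was tested on simulated data. Where no array of a group had a gene well above background, the change is given as "at least N-fold", from the other group's mean against the lowest signal well above background.

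The alternatives were normexp background correction, quantile normalization, the deposited log2 values, no filter or 9 of 18 arrays, line or slide as a block, fewer arrays, the probe mean, a variance trend, and each array left out. The labels give EV and BRAF cultures of a line the same number. This was taken as pairing only in the fits with line as a block, not in the main fit. Deviations of same-numbered arrays correlated at 0.0595, -0.00618 and 0.211. Named genes were any list member and, outside the lists, the 15 largest changes, the 5 largest bounds and the 6 smallest p between media in each direction. The members and lists were chosen with earlier results of these data known. Some list members are counted with their list but not reported here by name. The number of arrays limits the precision.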

Additional observations from a re-analysis of the deposited data

Results flagged for a closer look

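The BRAF minus EV difference in base medium differed from that in ENSW medium in 756 of 21423 genes, by the limma test of the difference itself. Racgap1 differed between the media by 3.27 ± 0.41 (SE, adjusted p = 0.00412), Tk1 by 3.43 ± 0.56 (SE, adjusted p = 0.0132) and Kif4 by 3.14 ± 0.42 (SE, adjusted p = 0.00494), each with the larger difference in base medium. Eif4ebp3 differed by -2.04 ± 0.30 (SE, adjusted p = 0.00888), as its difference was more negative in base medium. Groups of 3 arrays are too small for a test of single outlying arrays, and none was made.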

How the results depend on the processing

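Of 125 called genes followed 1 by 1, some of them not named here, 106 kept the call in every alternative and none reversed. Without BRAF line 1 the differences of Axin2 and Ascl2, not called, turned, and their ranges with 1 array left out were -0.056 to 1.27 and -0.20 to 3.90. The 6652 calls became 4368 to 6711 with 1 array left out, 2982 in the fit of the 6 arrays alone and 2346 with line as a replicate block in those 6 arrays. Line as a replicate block in the fit of 18 arrays gave 7497 calls, 1376 between media and 2759 between selected and BRAF organoids. The 756 genes that differed between media became 1326 with normexp background correction, 336 with no filter on dim probes, 1388 with slide as a random block, 1143 with a variance trend, 11 in the fit of 12 arrays, and 51 to 1912 with 1 array left out. Normexp also moved the median of all genes between media from -0.084 to -0.23. The 2093 genes of selected against BRAF organoids became 842 to 3372 with 1 array left out and 232 in the fit of 6 arrays alone. The alternatives for selected organoids and the block in the 6 arrays were chosen after seeing the data. The fits with fewer arrays have fewer residual degrees of freedom. For the other changes the cause was not tested. Of 357 recomputed medians of 21 lists, 13 moved by more than the spread between the arrays of a group (1 SD of the list median) and 0 reversed. Genes near background carry only a bound, and 254 higher and 133 lower calls were of genes not well above background in 1 group.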

Other observations

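Several genes outside the lists were among the largest falls. Sectm1b, a secreted and membrane protein, fell from 2.50, 0.81 and 3.05 in EV to -3.99, -7.42 and -2.10 in BRAF lines (-6.62 ± 1.49 SE, adjusted p = 0.0046). Klk1, a kallikrein protease, lay at -0.28, -2.46 and -1.44 in EV lines and was not well above background in BRAF lines (-5.59, -6.53 and -5.82), at least 17.4-fold lower (adjusted p = 0.00914). Akr1c14, an aldo-keto reductase of steroids, fell from 1.71, -2.47 and 0.72 in EV to -7.57, -7.55 and -4.50 in BRAF lines (-6.53 ± 1.34 SE, adjusted p = 0.0025). Cpn1, a carboxypeptidase subunit, fell by 6.78 (adjusted p = 0.00544). Pdzd3, a scaffold of the brush border, was not well above background in BRAF lines and at least 32.9-fold lower (adjusted p = 0.00169). Akr1c14 and Cpn1 were well above background on 1 BRAF array and Sectm1b on 2.

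The wild-type organoids had 1 array in base medium and so no replicate, and they entered no comparison. Their median level was -3.17 for the mitosis genes, where the EV lines 1 to 3 had -1.83, -2.25 and -3.75. It was 5.63 for the colonocyte genes, where the EV lines had 5.45, 4.53 and 6.63, and 3.75 for the goblet genes, where they had 4.33, 1.35 and 2.86. For the enteroendocrine genes it was -0.42, above all 3 EV lines (-1.35, -4.11 and -1.68).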
